A study of Mus musculus with 24 samples.

Results

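The major histocompatibility complex (MHC) of the mouse, called H2, was described by every deposited H3K4me3 region that overlapped chromosome 17 from 34 to 38 Mb on the build GRCm39. These members number 478 of the 63425 regions in the 3 lists. They comprise 158 KD regions, from the list unique to KDM1A knockdown, 11 WT regions, from the list unique to the wild type, and 309 regions listed as common to both conditions. The interval was defined by position alone, not by any measured value, though it was chosen with earlier results of these data known. Trimethylation of lysine 4 on histone H3 (H3K4me3) is a mark of active promoters and was profiled by chromatin immunoprecipitation and sequencing. The cells were leukemic splenocytes of Eµ-TCL1A mice on the C57BL/6 strain, a model of chronic lymphocytic leukemia in which the Eµ enhancer drives the TCL1A transgene in B cells. Both groups carry this transgene, and they differ in treatment, labelled KDM1A knockdown in one and none in the other (KDM1A wild type). The labels give neither the age and sex of the animals nor the way the knockdown was made. For each condition 3 biological replicates were sequenced in 2 technical replicates, as precipitated and as input libraries (24 in all), yet the lists give only 1 value per region for the whole comparison. The spread between replicates is thus not known for any difference below, and no p-value is given. The depth of the libraries is unknown. Intervals are 95% Wilson intervals: they cover only the error of counting, and they treat neighbouring regions as independent.

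The MHC encodes the molecules by which cells show peptides to T cells. The classical class I molecules (H2-K1 and H2-D1) present peptides from inside the cell on nearly all nucleated cells. Class I also includes the Q, T and M families, to which that description does not apply in general. Class II molecules (such as H2-Aa with H2-Ab1) present peptides taken up from outside and are made by B cells and other professional antigen-presenting cells. The genes for peptide loading (Tap1, Tap2, Psmb8, Psmb9 and the H2-DM and H2-O chains) lie among the class II genes. The class III block between class II and H2-D1 carries complement genes (C2, Cfb, C4b), cytokine genes of the tumor necrosis factor family (Tnf, Lta, Ltb), heat shock genes and many housekeeping genes. KDM1A (LSD1) removes methyl groups from mono- and dimethylated lysine 4 of histone H3 and does not act on the trimethylated form.

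From H2-K1 to H2-M2, RefSeq lists 283 genes in order on GRCm38.p6, of which 169 are protein-coding, 45 have H2 symbols and 27 are olfactory receptor genes. By that order class II runs from H2-Oa to H2-Ea, class III from Notch4 to Ddx39b, and class I from H2-K1 to H2-M2, so class I genes flank the other classes. This table is of another build than the region lists, and coordinates were not carried from one to the other. No region below is therefore assigned to a gene, and the level of H3K4me3 at any H2 promoter is not analysed here.

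Promoters of class I and class II genes share a compact control module that includes a reversed CCAAT box, the Y box, bound by the factor NF-Y. The sequences below show such promoters for 2 class II and 2 class I genes, as background on how promoters of these gene families are built. Each is the stretch from 150 bases to 1 base before the first listed gene start in RefSeq on GRCm38.p6, read 5′ to 3′ on the gene's strand, and capitals mark CCAAT or its reverse complement ATTGG.
H2-Aa (minus strand): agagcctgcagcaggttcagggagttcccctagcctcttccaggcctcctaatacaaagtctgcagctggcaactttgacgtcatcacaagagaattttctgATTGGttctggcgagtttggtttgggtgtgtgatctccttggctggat
H2-Eb1 (plus strand): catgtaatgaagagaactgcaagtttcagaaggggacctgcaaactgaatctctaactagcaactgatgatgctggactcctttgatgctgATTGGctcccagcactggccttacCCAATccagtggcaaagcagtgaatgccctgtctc
H2-K1 (minus strand): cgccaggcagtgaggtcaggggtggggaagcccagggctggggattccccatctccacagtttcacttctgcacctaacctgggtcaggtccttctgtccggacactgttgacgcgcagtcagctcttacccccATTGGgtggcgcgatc
H2-D1 (plus strand): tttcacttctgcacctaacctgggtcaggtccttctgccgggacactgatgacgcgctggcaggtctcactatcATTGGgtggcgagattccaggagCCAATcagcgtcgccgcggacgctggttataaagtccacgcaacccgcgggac

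All 4 windows hold the motif, as do 24.5% of 32851 RefSeq promoter windows of the same length when both strands are searched. A match is a description of these letters, and no deposited region was matched to these promoters.

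The first question was in which direction the mark differed across the MHC. KD regions far outnumbered WT regions. A region in either of these lists is termed one-sided, and the KD share gives what percentage of the one-sided regions came from the KD list. This share was 93.5% (88.7 to 96.3%) of 169 one-sided regions in the MHC interval. The rest of chromosome 17, with 669 KD and 201 WT regions, had a share of 76.9% (74.0 to 79.6%). The difference was 16.6 percentage points (95% Newcombe interval 11.1 to 20.7, counting error only). On the autosomes other than 15 and 17 the KD share was 71.9% (71.2 to 72.5%).

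Both lists contributed to the gap, and the WT list did so in larger proportion. Of all regions in the MHC interval 33.1% were KD regions, where KD regions make up 23.4% of the 3 lists as a whole and 23.9% of those on the rest of chromosome 17. WT regions were 2.30% of the MHC regions, against 8.4% of the whole lists and 7.18% of the rest of the chromosome. Set against shared H3K4me3, the MHC held 51.1 KD regions per 100 common regions, and the rest of chromosome 17 held 34.7. For WT regions the same ratio was 3.56 in the MHC and 10.4 on the rest of the chromosome. In covered length, KD regions of the MHC came to 69.4 kb, WT regions to 3.82 kb and common regions to 563 kb. KD length amounted to 12.3% of common length in the MHC and 10.9% on the rest of the chromosome, so KD regions differed less by length than by number. WT length amounted to 0.678% of common length in the MHC and 4.31% elsewhere on the chromosome. The lists overlap in part, and 16.7 kb of the KD length (24%) was also covered by common regions.

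The second question was how the regions are spread along the interval. In 250-kb steps, KD regions outnumbered WT regions in 12 of 16 steps, WT regions outnumbered KD regions in 2, and 2 steps held no region of any kind. The step at 34.25 to 34.5 Mb held most KD regions, with 40 KD, 1 WT and 54 common regions, and KD regions covered 20.5 kb beside 91.1 kb of common regions. The step at 35.25 to 35.5 Mb followed with 35 KD, 1 WT and 53 common regions, which covered 17.4, 0.332 and 87.9 kb. The step at 35 to 35.25 Mb was the third, with 23 KD, 3 WT and 37 common regions, and its 3 WT regions are the most of any step. These 3 steps held 98 KD regions, which is 62.0% of the KD regions of the interval, and 46.6% of its common regions.

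KD counts followed the density of shared H3K4me3 along the interval, with exceptions. The first step, 34 to 34.25 Mb, had 15 KD and 36 common regions and no WT region. From 34.5 to 34.75 Mb there were 7 KD and 19 common regions, and from 34.75 to 35 Mb 2 KD and 14 common regions, again without a WT region. Per 100 common regions, the densest step held 74.1 KD regions and the step at 34.75 to 35 Mb held 14.3. That step still had 32.4 kb of common regions, with a median length of 1850 bp against 913 bp in the densest step. The step thus had fewer shared regions, which were longer at the median.

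Beyond 35.5 Mb the interval thinned out. The step at 35.5 to 35.75 Mb had 2 KD, 1 WT and 10 common regions, and that at 35.75 to 36 Mb had no KD region, 1 WT and 9 common regions. A further cluster lay at 36 to 36.5 Mb, where 6 and 17 KD regions in successive steps stood beside 14 and 39 common regions and 1 WT region in each. The step at 36.5 to 36.75 Mb held 4 KD, 1 WT and 9 common regions. The steps at 36.75 to 37 and 37.75 to 38 Mb were empty. From 37 to 37.25 Mb there were 5 KD and 4 common regions, from 37.25 to 37.5 Mb 1 WT and 8 common regions, and from 37.5 to 37.75 Mb 2 KD and 3 common regions. The boundary at 35.5 Mb was chosen after these counts were seen. Before it the KD share was 96.1% (91.1 to 98.3%), from 122 KD and 5 WT regions. After it the share was 85.7% (72.2 to 93.3%), from 36 KD and 6 WT regions, and the intervals overlap.

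**Figure D1:**
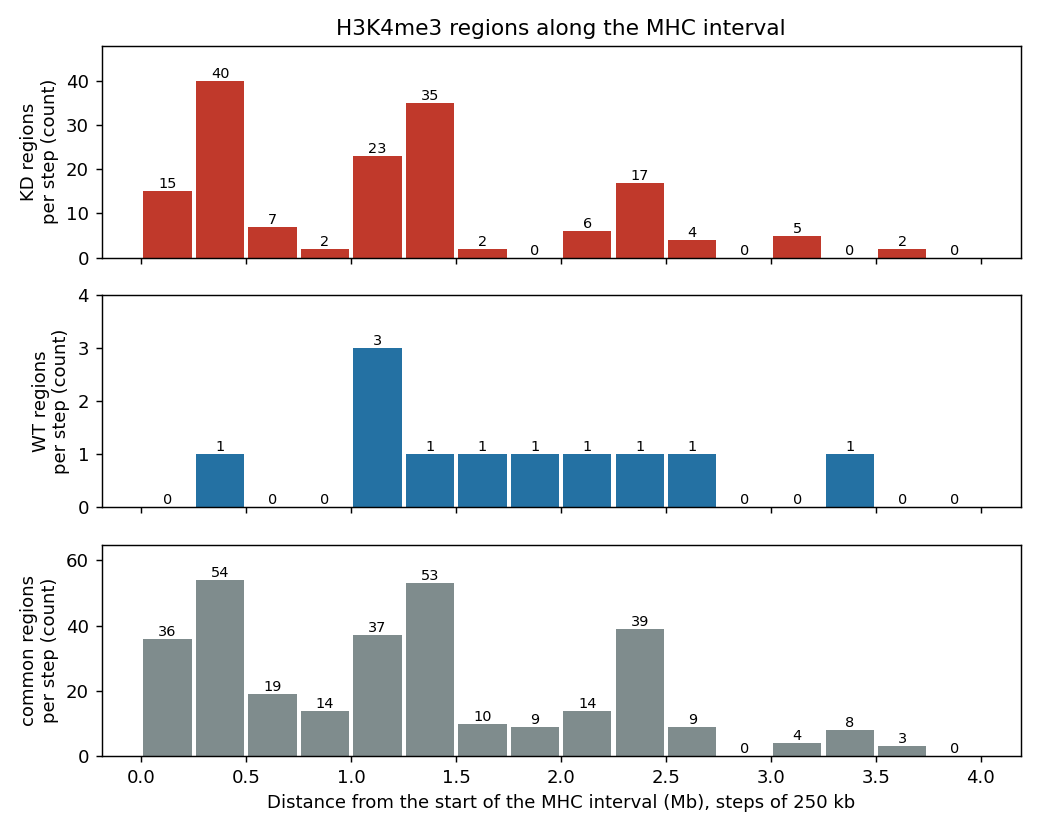
Number of KD (red), WT (blue) and common (grey) regions in each 250-kb step against the distance from the start of the MHC interval in Mb, with the count above each bar. KD regions peak at 40 and 35 in the steps where common regions peak at 54 and 53, while no step holds more than 3 WT regions.

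No step elsewhere on the chromosome held as many as 35 KD regions. Among 195 steps of the rest of chromosome 17 that held a common region, the median was 2 KD regions (quartiles 0 and 5), 1 WT region and 8 common regions. The richest of them, at 86.5 to 86.75 Mb, had 31 KD, 0 WT and 53 common regions. Its common regions were nearly as many as in the densest MHC step, and its KD regions were fewer. In length the 2 steps were close, with KD length at 22.1% of common length there and 22.5% in the densest MHC step. Of 175 steps elsewhere on the chromosome with a one-sided region, 50 had a WT majority.

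The third question was whether the high KD share goes with the density of H3K4me3. The autosomes were divided into windows of 4 Mb on the grid that contains the MHC interval. Among 567 other windows outside chromosome 15, none held more KD regions than the 158 of the MHC, and 1 held more common regions (345) and a greater common length (571 kb). The median of these windows was 16 KD regions and 89.6 kb of common length. Chromosome 15 is given apart, a choice made with its KD share known, since the median share of its 21 windows with at least 20 one-sided regions was 93.0% (range 73.9 to 100%). Of these 21 windows 10 had a higher share than the MHC, and 3 windows of chromosome 15 held more KD regions, up to 258.

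Windows with at least 20 one-sided regions ranged widely. Of 327 others outside chromosome 15, 11 had a higher KD share than the MHC, and their median was 75% (quartiles 64.0 and 82.6%). The share was higher in dense windows, since the 33 other windows with at least 300 kb of common regions had a pooled share of 81.7% (80.3 to 83.0%). Among those 33, a comparison chosen after the data were seen, the highest share was 91.7% and the lowest 47.5%, so the MHC stood above these 33. Chromosome 15 has 3 windows as dense, with shares of 97.0, 97.0 and 91.7%, and 2 of them lay above the MHC. The 3.56 WT regions per 100 common regions of the MHC lay below the range of the 33 windows (4.57 to 22.6), but the same 2 windows of chromosome 15 were lower, at 2.25 and 2.69. KD regions per 100 common regions were not extreme, since 3 of the 33 windows lay above the 51.1 of the MHC and their maximum was 55.1. With chromosome 15 included, 2 of 36 other dense windows had a higher KD share than the MHC, 2 a lower WT ratio and 6 a higher KD ratio. These ranks depend on the limit of 300 kb. Just below it, with 279 kb, the window at 22 to 26 Mb of chromosome 13 had a KD share of 94.8%. It held 2.96 WT and 54.4 KD regions per 100 common regions, so it lay beyond the MHC on each measure. A window is a single stretch of 1 chromosome, so these ranks describe the lists and are not a test.

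**Figure D2:**
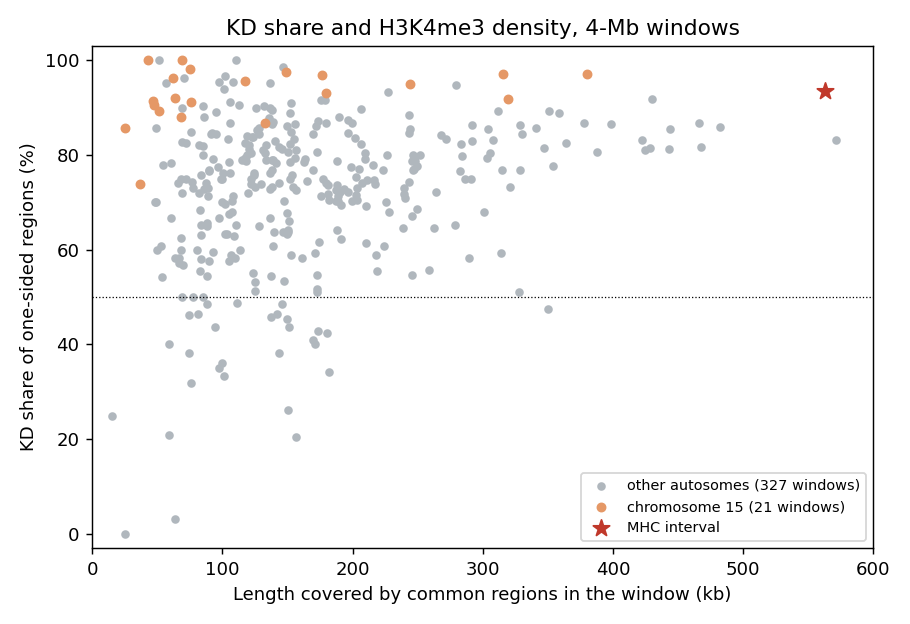
KD share of one-sided regions in percent against the length covered by common regions in kb, for 4-Mb autosomal windows with at least 20 one-sided regions. The MHC interval (red star) lies at 93.5% and 563 kb, above the grey windows of 300 kb or more (at most 91.7%), while 2 windows of chromosome 15 (orange) that are as dense lie higher, at 97.0%. A grey window of chromosome 13 at 279 kb also lies higher, at 94.8%.

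Scores were modest. The score is the authors' own value per region, is not defined in the file headers, and lies above 3 in every one-sided region and below 3 in every common region. KD regions of the MHC had a median score of 4.36 (quartiles 3.78 and 5.03), close to the 4.42 (3.83 and 5.28) of KD regions on the rest of the chromosome. WT regions of the MHC had a median of 4.38 (3.87 and 6.19), against 5.86 (4.23 and 10.5) elsewhere on chromosome 17. The MHC thus had fewer WT regions, and those it had scored lower at the median. With 11 WT regions these quartiles rest on few values.

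In percentage points, raising the score minimum lowered the KD share less in the MHC, where it started higher, than elsewhere on the chromosome. At a score of at least 5 the MHC kept 40 KD and 5 WT regions, a share of 88.9% (76.5 to 95.2%). The rest of chromosome 17 kept 212 and 115 regions, a share of 64.8% (59.5 to 69.8%). Of its KD and WT regions the MHC thus kept 25.3% and 45.5%, and the rest of the chromosome 31.7% and 57.2%. The number of KD regions per WT region fell by nearly the same factor in both sets. At a score of at least 6 the shares were 80% (58.4 to 91.9%) from 16 KD and 4 WT regions, and 53.6% (46.8 to 60.2%) on the rest of the chromosome, with intervals that overlap slightly. At a score of at least 8 the MHC kept 5 KD regions and 1 WT region, while the rest of the chromosome kept 46 and 68, a KD share of 40.4% (31.8 to 49.5%). With 6 regions left in the MHC, whose interval is 43.6 to 97.0%, a difference at that minimum was not resolved. The number of KD regions per WT region fell more in the MHC at a minimum of 6, where 4 WT regions were left. It fell less in the MHC at minimums of 4, 8 and 10. By this ratio the MHC was therefore not steadier at every minimum.

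**Figure D3:**
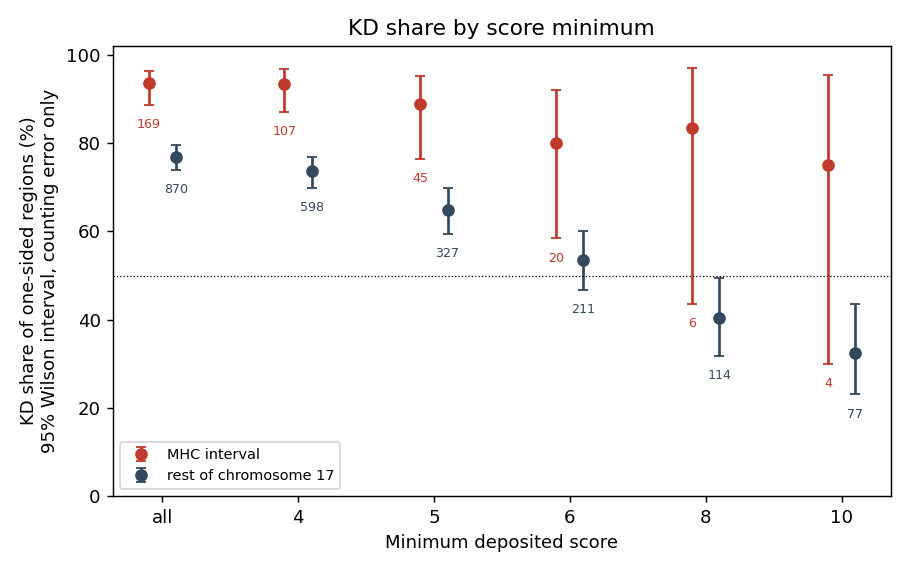
KD share of one-sided regions in percent, with 95% Wilson intervals (counting error only), at rising minimums of the deposited score for the MHC interval (red) and the rest of chromosome 17 (dark), with the number of regions under each point. The MHC falls from 93.5% to 88.9% at a minimum of 5, where the rest of the chromosome falls from 76.9% to 64.8%, and from a minimum of 8 on the MHC interval is wide.

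KD regions of the MHC were short pieces. Their median length was 309 bp (quartiles 248 and 429 bp), against 341 bp (269 and 511 bp) on the rest of the chromosome, and 11 of 158 reached 1 kb. WT regions had a median of 322 bp (283 and 348 bp), against 465 bp (313 and 706 bp) elsewhere on the chromosome. Common regions of the MHC had a median of 894 bp, close to the 841 bp elsewhere, but their upper end was longer. Of the common regions 27 (8.74%) reached 5 kb, against 4.41% on the rest of the chromosome.

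Most KD regions adjoined shared H3K4me3. In the MHC 107 of 158 KD regions, 67.7% (60.1 to 74.5%), touched or overlapped a common region, against 54.7% (50.9 to 58.4%) on the rest of the chromosome. Of these 107, 21 lay wholly inside a common region. Within 1 kb of a common region lay 84.2% (77.7 to 89.0%) of KD regions in the MHC and 74.7% (71.3 to 77.9%) elsewhere on the chromosome. Over 5 kb away lay 8 KD regions of the MHC, 5.06% (2.59 to 9.67%), against 13.5% (11.1 to 16.2%). Common regions are denser in the MHC, and the part of density in this nearness was not tested. Of the 11 WT regions, 10 touched or overlapped a common region and 1 was 18771 bp away from any.

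Neighbours separated by at most 1 kb, whatever their list, were merged into domains, and the MHC held 151 of these. A domain with at least 1 common region is called shared. Of 131 shared domains in the MHC, 65 contained a KD region, 49.6% (41.2 to 58.1%), against 28.4% (25.8 to 31.2%) of 1067 on the rest of the chromosome. A WT region was present in 9 of them, 6.87% (3.66 to 12.5%), against 13.0% (11.1 to 15.2%). KD regions in shared domains were flanked by common sequence on both sides in 89 of 135 cases, and 34.1% (26.6 to 42.4%) lay at the outer edge. On the rest of the chromosome 45.1% (40.9 to 49.4%) of such KD regions lay at the edge. A KD region inside a common region counts here as flanked on both sides. Shared domains with a KD region were longer in the MHC (median 5987 bp, against 3592 bp), and the part of length in the edge share was not tested.

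Shared domains of the MHC were longer than elsewhere, and longer domains held a KD region more often, so domains are also given by length class. Domain length includes the one-sided regions, which can also join neighbouring common regions. A domain with KD regions is thus longer in part by construction, and the classes do not hold the length of shared H3K4me3 constant. Among domains of 5 kb or more, 36 of 49 in the MHC held a KD region, 73.5% (59.7 to 83.8%), against 51.8% (45.3 to 58.2%) of 224 on the rest of the chromosome. Among those of 2 to 5 kb the shares were 47.1% (31.5 to 63.3%) of 34 and 24.9% (20.7 to 29.7%) of 353. Below 2 kb they were 27.1% (16.6 to 41.0%) and 20.2% (16.9 to 24%), with overlapping intervals. For WT regions the order was the opposite in the long class, with 10.2% (4.44 to 21.8%) of MHC domains of 5 kb or more and 25.9% (20.6 to 32%) elsewhere, where the intervals overlap slightly.

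**Figure D4:**
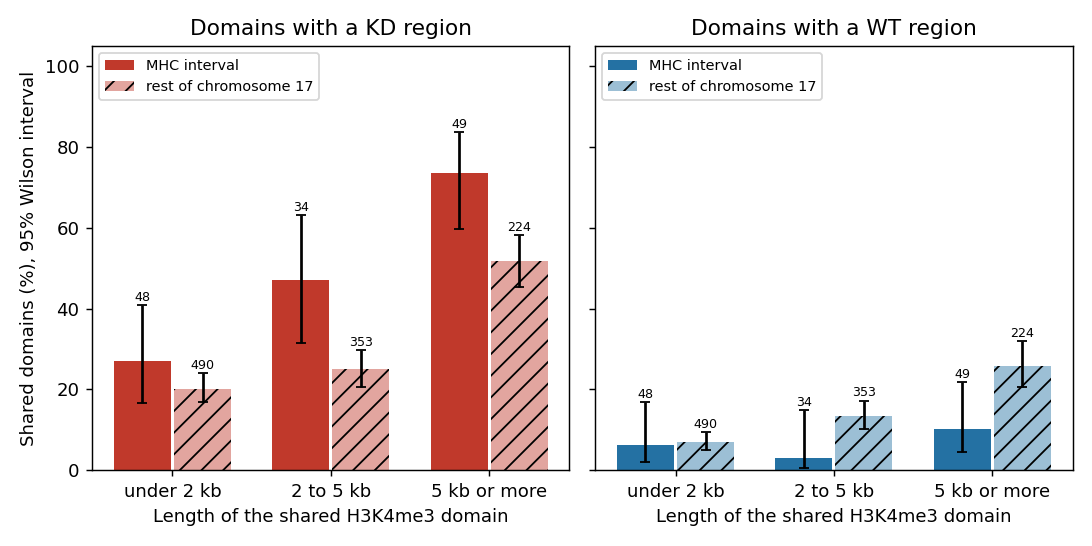
Percentage of shared H3K4me3 domains that contain a KD region (left) or a WT region (right) by domain length, for the MHC interval (solid) and the rest of chromosome 17 (hatched), with 95% Wilson intervals and the number of domains above each bar. Domain length includes the one-sided regions, so a KD region itself adds to the length of its domain. In the class of 5 kb or more, 73.5% of MHC domains hold a KD region and 10.2% a WT region, against 51.8% and 25.9% elsewhere on the chromosome.

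The domain with the most KD regions spanned 28285 bp at chr17:34398889-34427173. It held 11 KD and 14 common regions and no WT region, and KD regions covered 9081 bp of it. Its 2 longest KD regions lay almost end to end, at chr17:34409339-34412003 (2665 bp, score 5.98) and chr17:34412109-34414662 (2554 bp, score 5.93). They are also the longest KD regions of the whole interval. Next in length was a KD region of 1924 bp with a score of 5.27 at chr17:34372467-34374390 in a domain of 21435 bp with 6 KD and 7 common regions.

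The domain second in KD regions spanned 23048 bp at chr17:35402908-35425955, with 8 KD and 13 common regions. KD regions covered 5731 bp of it, most of that towards its end. A domain of 9614 bp at chr17:35242484-35252097 followed with 7 KD and 5 common regions. On the rest of chromosome 17 the domain with the most KD regions held 10, over 17839 bp. The 9 MHC domains with 5 or more KD regions held no WT region.

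**Figure D5:**
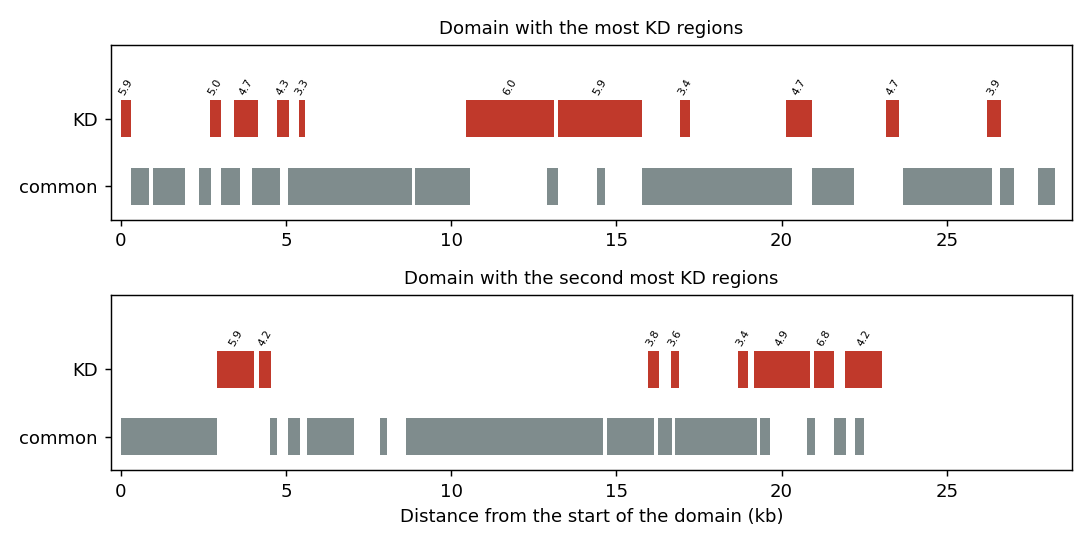
Common (grey) and KD (red) regions of the MHC domains with the most (11) and second most (8) KD regions, against the distance from the domain's start in kb, with each KD region's deposited score above it. KD regions lie among common regions in both, and the upper domain holds a pair of KD regions of 2665 and 2554 bp almost end to end. In the lower domain the stretch from 4.55 to 15.9 kb holds common regions alone.

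None of these domains held the 3 top-scoring KD regions. The highest, with a score of 16.4 and 1207 bp, was at chr17:37180446-37181652 with 15043 bp between it and any common region. The second, with a score of 11.9 and 336 bp, was its neighbour at chr17:37181771-37182106. The third was at chr17:34715090-34716205 with a score of 10.5 and 1116 bp, 45984 bp from any common region. These 3 are the KD regions of the interval that scored at least 10, and each stood apart from shared H3K4me3.

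The next scores belonged to regions beside shared sites. They were at chr17:35251064-35251571 (8.87), chr17:35441016-35441791 (8.04), chr17:35236746-35237001 (7.54), chr17:35450133-35450709 (7.35) and chr17:34143241-34143720 (6.99). The first 4 of these lay within 1 kb of a common region and the last lay 1920 bp away. At the other end, the lowest score of a KD region in the interval was 3.11, just above the limit of the one-sided lists.

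The 11 WT regions were scattered, and 1 of them scored high. At chr17:35117343-35118100 a WT region of 758 bp had a score of 17.1, the highest of any one-sided region in the interval, and its domain held common sequence on both sides of it. A second WT region, at chr17:35113478-35113730 (4.38), lay near it, in the step with 23 KD regions. The others scored 7.48 at chr17:36011340-36011697, 6.25 at chr17:35383350-35383681, 6.13 at chr17:34251040-34251376 and 5.80 at chr17:35780966-35781367. Lower scores were found at chr17:36456022-36456333 (4.32), chr17:36625528-36625849 (3.99), chr17:35218014-35218326 (3.75) and chr17:37267992-37268193 (3.66). The lowest, 3.28, was at chr17:35539951-35540180, the WT region far from any common region.

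Between neighbouring WT regions the KD regions formed long unbroken runs. From chr17:34252881-34253257 to chr17:35106944-35107290, 55 KD regions followed each other with no WT region between them, over 854 kb that also held 93 common regions. By number of KD regions this run, singled out after it was seen, was the longest on chromosome 17. By the same count it was the fifth longest on the autosomes other than 15, where the longest had 75 KD regions. The longest on chromosome 15 had 108. The longest run on chromosome 17 outside the interval had 37 KD regions. In span the run of 55 was not the longest on chromosome 17, since a run of 23 KD regions covered 2209 kb. Without the one-sided regions of the run of 55 the KD share of the MHC was 90.4%.

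The 309 common regions showed the mark in both conditions across the interval. The 5 longest were at chr17:36170586-36182562 (11977 bp), chr17:34166374-34177703 (11330 bp), chr17:34804398-34813617 (9220 bp), chr17:36145667-36154845 (9179 bp) and chr17:34241978-34251039 (9062 bp). Their scores lay between 0.260 and 0.623, far below the limit of the one-sided lists. None of the 5 was in either domain with most KD regions. The median score of all common regions in the MHC was 0.641 (quartiles 0.379 and 1.17), against 0.537 (0.314 and 0.963) on the rest of the chromosome. Of 146 other windows off chromosome 15 with at least 100 common regions, 15 had a higher median. For common regions the headers give the score no direction.

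Common regions next to KD regions scored nearer to the limit. In the MHC 128 common regions, 41.4% (36.1 to 47.0%), touched or overlapped a KD region, against 22.5% (20.7 to 24.4%) on the rest of the chromosome. Their median score was 0.995, and that of 135 common regions with no one-sided region within 1 kb was 0.446. On the rest of the chromosome the same 2 medians were 1.09 and 0.401, so this contrast was not particular to the MHC. The common regions with the 3 highest scores, 2.78 at chr17:34413293-34413556, 2.71 at chr17:36328636-36328890 and 2.71 at chr17:34373471-34373793, all lay inside a KD region. In all, 8 common regions of the MHC lay inside a KD region, with a median length of 271 bp. How the authors divided neighbouring stretches between the lists is not given in the sources used here.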

How the data were processed

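The authors deposited 3 region lists from H3K4me3 libraries of 4 groups of 6 (wild type and KDM1A knockdown, immunoprecipitated and input). Per the file headers, 1 list is unique to the knockdown, 1 unique to the wild type and 1 common to both. The deposited score, 1 per region, is not defined there. The tools named are MACS2 2.2.6, SAMtools 1.6 and Bowtie2 2.2.9, on GRCm39, per the submitters' processing notes; for their settings, filters, scaling and any pooling the sources used here say nothing. Depth is unknown.

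Python 3.11.15, pandas 2.3.3, numpy 2.4.6, scipy 1.17.1 and matplotlib 3.10.9 were used. A region belonged to the interval if it overlapped it by 1 base or more, and was counted in the step or 4-Mb window that held its midpoint. Lengths per step instead took the bases lying inside the step. The gap and domain code recovered 100% of 600 one-sided regions in simulated data, where each common region stood apart with 1 one-sided region. Domains with several common regions, as in the MHC, were not simulated. Named were all regions of a list with at most 12, otherwise the 8 highest-scoring and 3 longest, the 5 longest and 3 highest-scoring common regions, and the richest and the empty steps. The members and lists were chosen with earlier results of these data known. Coordinates are 1-based on GRCm39. Gene lists were not tested, as no annotation of that build was used. Score minimums other than 5, dense windows, domains, runs and length classes were added after seeing the data.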

Additional observations from a re-analysis of the deposited data

How the results depend on the processing

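The KD share of the MHC interval lay between 75 and 97.0% over the alternatives run, and its excess over the comparison set between 9.53 and 43.0 percentage points. Over 76 alternative values, 44 fell inside the reported value's counting interval (for covered length, within 1.5 times of it), 32 moved further and 0 reversed. A score of at least 5 gave an excess of 24.1 points, 12.9 KD and 1.62 WT regions per 100 common regions, lengths of 4.30% (KD) and 0.388% (WT) of common length, and nearness of 70% (KD) and 100% (WT). A minimum at each list's own median score gave 22.7 and 1.62 per 100, 6.96% and 0.388% in length, and nearness of 75.7% and 100%. With a minimum length of 500 bp the KD share was 97.0%, with an excess of 31.1 points, 16 and 0.5 per 100, 6.06% and 0.143% in length, and nearness of 71.9% and 100%. Fewer one-sided regions are left under these 3 filters by their construction, with 5, 5 and 1 WT regions. The length filter also removed common regions, which the score filters did not, so its ratios to common regions rest on another base. Score minimums of 6, 8 and 10, added after seeing the data, gave shares of 80, 83.3 and 75% and excesses of 26.4, 43.0 and 42.5 points, from 20, 6 and 4 one-sided regions. Joining regions within 1 kb gave 35.6 KD regions per 100. Against autosomes other than 15 and 17 the excess was 21.6 points, and against other dense windows, also added then, 11.8, or 9.53 with chromosome 15 included. Nearness of KD regions was 67.7% for contact alone and 94.9% within 5 kb. No paired analysis was possible because single libraries have no values in these files, nor could any replicate be left out. Depth is unknown, so what it limits cannot be stated.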
